A study of Mus musculus with 8 samples.

Results

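The calcium/calmodulin kinases and calmodulin genes of ventral pallidum (VP) glutamatergic neurons (VPGlu neurons) were described in mRNA bound to the ribosomes of these cells and in mRNA of the tissue. The members were the entries of the deposited table with the names of 9 genes, of 14353 genes in all: the 4 genes of CaMKII (Camk2a, Camk2b, Camk2d and Camk2g), the kinases Camk4 and Camk1d, the upstream kinase Camkk2, and the calmodulin genes Calm2 and Calm3. The mice were a cross of vGluT2-Cre and RiboTag lines, homozygous for VGluT2-Cre and heterozygous for the tagged Rpl22, and all were untreated adults. RiboTag places a hemagglutinin tag on the ribosomal protein Rpl22 in cells with Cre, so that an antibody against the tag pulls down ribosomes of those cells with their mRNA (TRAP), while INPUT is mRNA of the same lysate that was not pulled down. The methods name both the lysate and the unbound fraction as its source, and which was sequenced is not settled here. Cre under the vGluT2 gene marks cells in which this gene was active, and tissue punches of the VP can hold some of the neighbouring striatum. Both fractions were made from each of 4 pools of mice, named VP1.6, VP2.2, VP2.6 and then VP2.11, which held 7 to 11 mice of both sexes and 38 mice in all, aged 9 to 12 weeks in VP1.6 and 10 to 16 weeks in the other pools. The pools were separate groups of mice, so the spread between them covers animals and library preparation together.

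Calcium that enters a neuron binds calmodulin, and calmodulin loaded with calcium switches on a family of protein kinases. CaMKII is a large holoenzyme assembled from the products of its 4 genes, and phosphorylation of a threonine in its regulatory segment lets it stay active after calcium has fallen. It is best known for its place at excitatory synapses and for its action on ion channels and synaptic vesicle proteins. CaMKIV, the product of Camk4, acts largely in the nucleus on CREB and its coactivators, CaMKID, the product of Camk1d, acts in the cytoplasm, and both need phosphorylation by a CaM kinase kinase such as CaMKK2, which also phosphorylates AMPK. Calm2 and Calm3 encode the same calmodulin protein.

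Reads were assigned to genes of similar coding sequence, so stretches of the coding sequences are shown to let the reader see how far the mRNAs differ where the proteins are nearly the same. The stretch of the CaMKII genes surrounds the codon of the threonine that is phosphorylated by the kinase itself, with 30 bases on each side, from GENCODE release M21 transcripts (GRCm38). The codon is in capitals and lies at chr11:5988997-5988999 on the minus strand for Camk2b, chr3:126797741-126797743 on the plus strand for Camk2d and chr14:20760439-20760441 on the minus strand for Camk2g. It is exonic and coding in each gene.
Camk2b: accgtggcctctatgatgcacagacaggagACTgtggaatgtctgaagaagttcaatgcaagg
Camk2d: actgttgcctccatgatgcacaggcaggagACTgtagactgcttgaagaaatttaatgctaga
Camk2g: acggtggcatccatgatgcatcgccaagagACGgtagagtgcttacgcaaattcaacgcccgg
Over these 63 bases Camk2b and Camk2d differed at 12, Camk2d and Camk2g at 18, and Camk2b and Camk2g at 20, while the encoded residues differed at 1, 2 and 1. No window of 75 bases, the read length of the study, was shared between the annotated transcripts of any pair of the 4 CaMKII genes, and the longest run shared between their coding sequences was 32 bases. A read of this length that matches the annotated transcripts of 1 CaMKII gene without error therefore matches those of no other.

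Calm2 and Calm3 go further, since their proteins of 149 residues are identical and their mRNAs are not. The stretch below codes for the first calcium-binding loop, and the 11 positions at which the genes differ are in capitals (GRCm38, coding exons, chr17:87435861-87435920 minus strand for Calm2 and chr7:16917655-16917714 minus strand for Calm3).
Calm2: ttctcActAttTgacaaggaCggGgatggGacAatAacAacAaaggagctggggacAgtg
Calm3: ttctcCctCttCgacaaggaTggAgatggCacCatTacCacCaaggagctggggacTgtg
Calm2 and Calm3 differed at 11 of these 60 bases and at 78 of their 447 coding bases. Again no window of 75 bases was shared between their annotated transcripts, and the longest shared coding run was 17 bases. Copies elsewhere in the genome, such as processed pseudogenes, were not examined.

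The values are log2 CPM, read counts scaled to a common library size, and levels are given here as CPM. The marker of the targeted cells, Slc17a6 (vGluT2), had 143 ± 13.6 CPM in TRAP and 25.9 ± 10.3 CPM in INPUT (mean ± SD, n = 4 pools), a log2 fold change of 2.55. The 3 glutamatergic markers summed to 189–216 CPM in TRAP and 32.2–70.8 CPM in INPUT. Of these, 2 were higher in TRAP (Slc17a6 and Slc17a7), and Slc17a8 did not pass. Summed markers of other cell types moved with the fraction. The 6 oligodendrocyte markers summed to 915–1642 CPM in TRAP and 3551–3839 CPM in INPUT, with 5 lower in TRAP. The other one, Mag, went the other way in 3 of 4 pools and did not pass (log2 fold change 0.61, limma adjusted p = 0.072). It was called higher with no block (adjusted p = 0.035) and with the trends on length described below taken out (adjusted p = 0.044 and 0.019). Mag was picked for naming after its values were seen. The 7 markers of striatal medium spiny neurons summed to 384–628 and 780–1079 CPM, also with 5 lower. The 6 astrocyte markers summed to 328–507 and 498–686 CPM with 4 lower, and the 5 microglial markers to 14.5–22.1 and 70.5–116 CPM with 4 lower, of which Tmem119 was at or below 1 CPM in every TRAP library. The GABAergic markers were present in both fractions (918–1573 and 584–1394 CPM, 1 of 3 lower). The cholinergic markers summed higher in every TRAP library than in any INPUT library (87.8–137 and 39.4–84.1 CPM), with 1 of 3 called lower and 2 of 3 higher at an unadjusted p under 0.05. Of the endothelial markers, 1 of the 3 in the table was higher in TRAP (9.68–37.5 and 4.37–7.59 CPM). The part of these cell types in the differences below was not tested.

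Of the 9 members, 6 rose in TRAP and none fell. At an unadjusted p under 0.05 in limma 7 were higher and 0 lower, and the share of all genes at that cut is not given. Those that rose were all 4 CaMKII genes, Camk4 and Camk1d, with 1.56- to 2.00-fold higher levels, while Camkk2 had a fold of 1.42 and did not pass the test, and Calm2 and Calm3 had folds of 1.02 and 0.974. The test was limma across 14249 genes with the pool as a block, and a gene was called at a Benjamini-Hochberg adjusted p under 0.05. Of all genes tested, 15.4% were called higher in TRAP and 16.8% lower. The 6 of 9 was above this share, but the members were chosen with earlier results of these data known, so this is a description only. With the trend on merged exon length described below taken out, 2 members were called higher, where 16.1% of all genes were. With no block, 7 members were called higher (Camkk2 in addition), where 23.2% of all genes were higher and 24.8% lower. The members' median log2 fold change was 0.69 and that of all genes -0.05. In bulk fractions such as these, fewer cells of a type and less RNA per cell cannot be told apart.

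**Figure D1:**
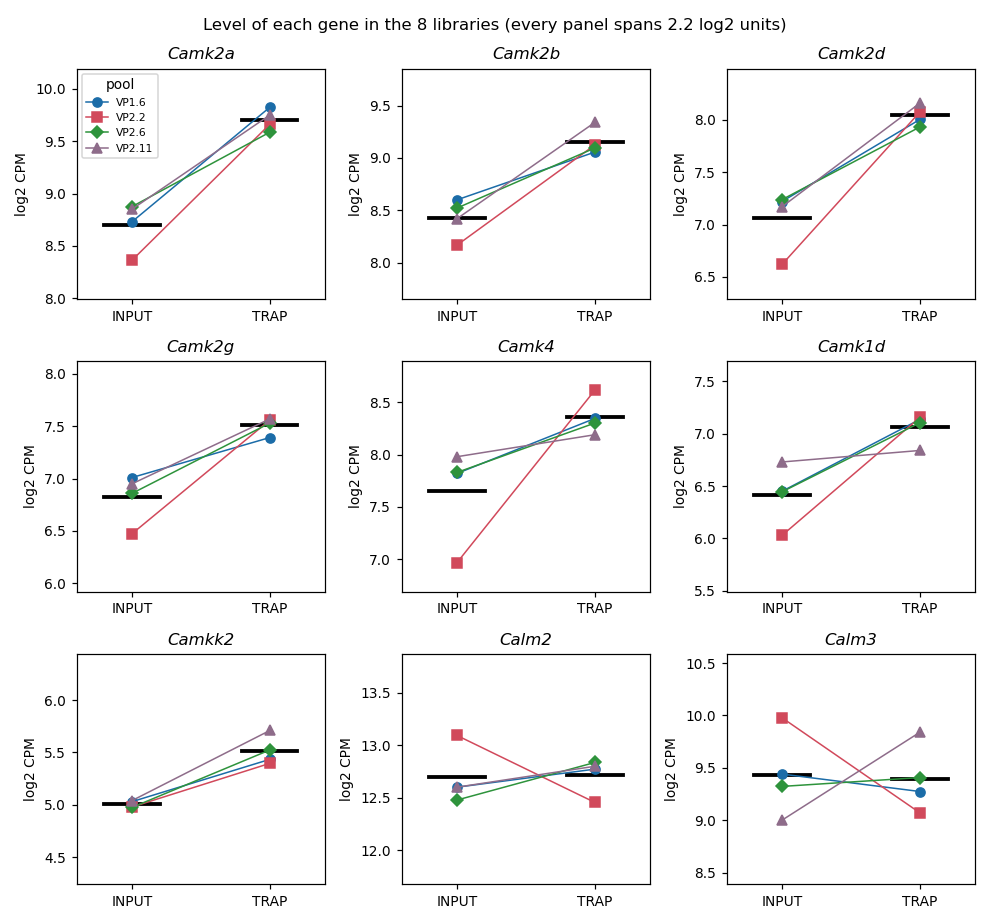
Level of each of the 9 genes in log2 CPM (vertical axis, 2.2 log2 units in every panel) in INPUT and TRAP, with 1 coloured symbol and line per pool and the mean of 4 pools as a black bar. All lines of the 7 kinase genes rise from INPUT to TRAP, while the lines of Calm2 and Calm3 cross, with VP2.2 falling in both.

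Camk2a (ENSMUSG00000024617, chr18:60925618-60988152, plus strand) encodes the alpha subunit of CaMKII, the main subunit of forebrain excitatory neurons. Its level in TRAP was 907 CPM in VP1.6, 810 in VP2.2, 769 in VP2.6 and 861 in VP2.11. In INPUT it was 425, 329, 469 and 461 CPM in the same order. Every TRAP library was above every INPUT library, and the lowest INPUT value was that of VP2.2. The log2 fold change was 1.00 (SE 0.23, 95% confidence interval 0.52 to 1.49, limma adjusted p = 0.0042), a fold of 2.00, and the differences within pools were 1.09, 1.30, 0.71 and 0.90. Among all genes tested, 99.0% had a lower level in TRAP and 89.6% a lower fold change.

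Camk2b (ENSMUSG00000057897, chr11:5969644-6066362, minus strand) encodes the beta subunit, which binds actin. It had 532, 558, 547 and 648 CPM in TRAP in the order of pools above, and 388, 287, 368 and 343 CPM in INPUT. The fractions did not overlap, with VP2.11 the highest in TRAP and VP2.2 the lowest in INPUT. This gave a log2 fold change of 0.73 (SE 0.22, 95% confidence interval 0.25 to 1.20, limma adjusted p = 0.021). The differences within pools ran from 0.46 in VP1.6 to 0.96 in VP2.2.

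Camk2d (ENSMUSG00000053819, chr3:126596302-126846326, plus strand) encodes the delta subunit, best known from the heart and present in many tissues. Its levels were 257, 270, 244 and 286 CPM in TRAP, against 149, 98.3, 151 and 144 CPM in INPUT. The fractions did not overlap, and INPUT VP2.2 stood below the other INPUT libraries, which were close together. The log2 fold change was 0.98 (SE 0.22, 95% confidence interval 0.52 to 1.45, limma adjusted p = 0.0037), near that of Camk2a, and the differences were 0.78, 1.46, 0.69 and 0.99. Without VP2.2 the log2 fold change was 0.82 (limma adjusted p = 0.0053).

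Camk2g (ENSMUSG00000021820, chr14:20734875-20794088, minus strand) encodes the gamma subunit, which is widely expressed and is known to carry calmodulin toward the nucleus. TRAP had 168, 189, 185 and 190 CPM and INPUT 129, 88.8, 116 and 124 CPM. These did not overlap either, and VP2.2 was again the lowest of the INPUT libraries. Its log2 fold change was 0.69 (SE 0.21, 95% confidence interval 0.23 to 1.15, limma adjusted p = 0.023), with differences of 0.38, 1.09, 0.67 and 0.62.

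Summed over the 4 CaMKII genes, TRAP held 1855 ± 100.0 CPM (SD, n = 4) and INPUT 1017 ± 143 CPM, and the sum was higher in TRAP in all 4 pools. By pool, TRAP had 1864, 1827, 1745 and 1985 CPM and INPUT 1091, 804, 1104 and 1072 CPM. The INPUT library of VP2.2 was the lowest for every CaMKII gene, and the difference within VP2.2 was the largest of the 4 pools for each.

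Camk4 (ENSMUSG00000038128, chr18:32934931-33191228, plus strand), the gene of the nuclear kinase CaMKIV, had 325, 392, 316 and 292 CPM in TRAP. INPUT had 226, 125, 227 and 252 CPM. The fractions did not overlap, but VP2.2 was both the highest in TRAP and the lowest in INPUT, and its difference of 1.65 was far from those of VP1.6 (0.53), VP2.6 (0.47) and VP2.11 (0.21). Over the 4 pools the log2 fold change was 0.71 (SE 0.25, 95% confidence interval 0.18 to 1.25, limma adjusted p = 0.042). Without VP2.2 it was 0.40 (limma adjusted p = 0.11, with adjusted p from 0.013 to 0.13 over the 11 alternatives), so the size of this difference rested on VP2.2. Camk4 was the only member with exon bases inside exons of another annotated gene, 72 bases (2.21%) on the opposite strand.

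Camk1d (ENSMUSG00000039145, chr2:5293457-5714515, minus strand), which encodes the cytoplasmic kinase CaMKID, had 141, 143, 138 and 115 CPM in TRAP and 87.4, 65.3, 87.1 and 106 CPM in INPUT. The fractions did not overlap, though the TRAP and INPUT libraries of VP2.11 were close, with a difference of 0.11 against 0.69, 1.13 and 0.66 in the others. The log2 fold change was 0.65 (SE 0.22, 95% confidence interval 0.17 to 1.12, limma adjusted p = 0.039). Leaving out a pool moved it between 0.49 and 0.82, and it kept its call only without VP2.11.

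Camkk2 (ENSMUSG00000029471, chr5:122731170-122779409, minus strand), the kinase that switches on CaMKI, CaMKIV and AMPK, was the least abundant member. It had 43.2, 42.1, 46.0 and 52.3 CPM in TRAP and 32.7, 31.5, 31.4 and 32.9 CPM in INPUT. The INPUT libraries were almost alike and all TRAP libraries were above them, in differences of 0.40, 0.42, 0.55 and 0.67. This gave a log2 fold change of 0.51 (SE 0.22, 95% confidence interval 0.04 to 0.98) and the limma adjusted p was 0.088. It was called with no block (adjusted p = 0.0066) and with library weights (adjusted p = 0.040), and the adjusted p ran up to 0.93 over the 11 alternatives.

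Among the 9 members, TRAP and INPUT levels did not overlap for 7, the 7 kinase genes, and 47.7% of all genes tested had such levels. Leaving out each pool in turn, Camk2a and Camk2d kept their calls in all 4 fits, with a highest adjusted p of 0.033 and 0.018. Camk2b, Camk2g, Camk4 and Camk1d kept theirs in 1 of 4 each.

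Calm2 (ENSMUSG00000036438, chr17:87433412-87446935, minus strand) was by far the most abundant member in CPM. It had 6997, 5612, 7313 and 7132 CPM in TRAP and 6208, 8744, 5703 and 6208 CPM in INPUT. The fractions overlapped, and VP2.2 went the other way from the other pools, with the lowest TRAP and the highest INPUT level. The differences were 0.17, -0.64, 0.36 and 0.20, and the log2 fold change was 0.02 (SE 0.33, 95% confidence interval -0.69 to 0.74, limma adjusted p = 0.97). Values this high are coarse in 3 of the 8 libraries, whose log2 CPM is rounded to 3 significant digits.

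Calm3 (ENSMUSG00000019370, chr7:16915379-16924114, minus strand) had 619, 537, 679 and 917 CPM in TRAP and 695, 1008, 640 and 512 CPM in INPUT. The fractions overlapped, and the pools disagreed in direction, with differences of -0.17, -0.91, 0.08 and 0.84. Over the 4 pools the log2 fold change was -0.04 (SE 0.28, 95% confidence interval -0.63 to 0.55, limma adjusted p = 0.93). The interval of Calm2 reached the log2 fold changes of all kinase genes but Camk2a and Camk2d. That of Calm3 reached only that of Camkk2 (0.51), which did not pass. A shift of either calmodulin gene within its interval could not be told from none. The summed level of Calm2 and Calm3 was 7451 ± 889 CPM in TRAP and 7430 ± 1566 CPM in INPUT (SD, n = 4), higher in TRAP in 3 of 4 pools.

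The log2 ratio of Calm2 to Calm3 in CPM, which does not depend on library scaling, was 3.32 ± 0.24 in TRAP and 3.26 ± 0.23 in INPUT (SD, n = 4). It changed by 0.34, 0.27, 0.27 and -0.64 within the pools, so VP2.11 went against the others (mean 0.06 ± 0.47, exact two-sided sign-flip permutation test over pools, p = 1.0). With the trends on length described below taken out, the mean change was 0.35 ± 0.61 (merged exons) and 0.47 ± 0.66 (longest transcript), still with VP2.11 against the others. The smallest p that 4 pools allow in this test is 0.13.

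**Figure D2:**
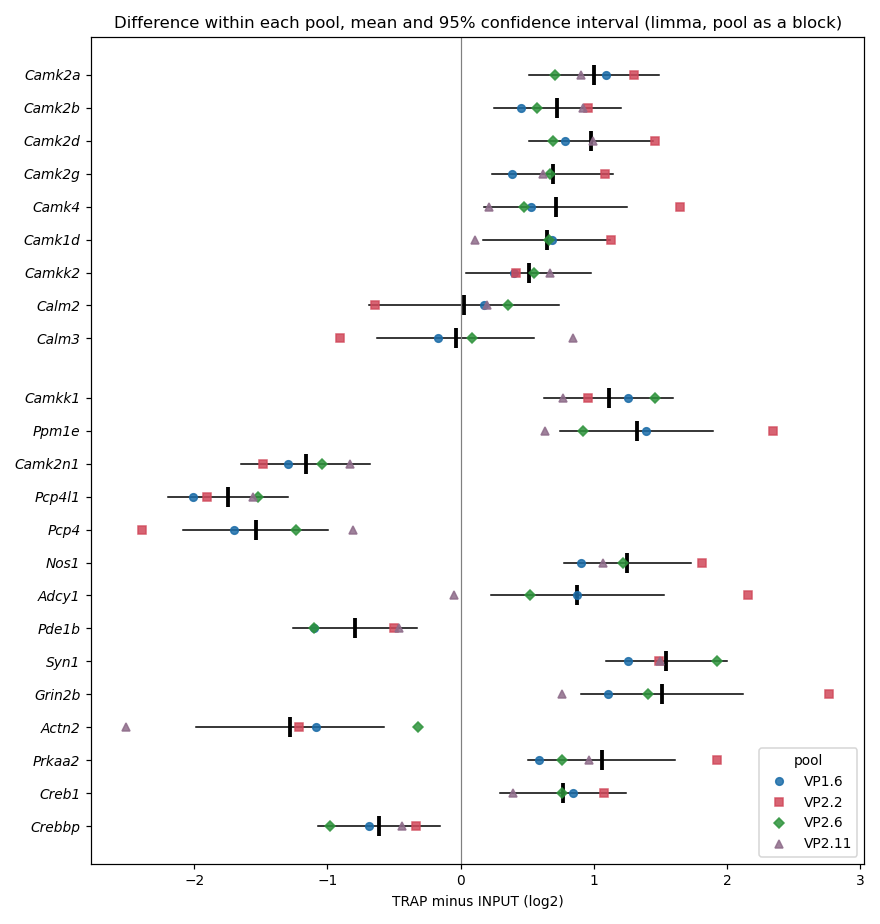
TRAP minus INPUT (log2, horizontal axis) within each of the 4 pools (coloured symbols) for the 9 members in the upper block and 14 pathway genes in the lower block, with the mean as a black tick and its 95% confidence interval from limma with the pool as a block as a line. The 7 kinase genes lie right of 0 in every pool, Calm2 and Calm3 lie on both sides, and Camk2n1, Pcp4 and Pcp4l1 lie left of 0 in every pool.

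Levels of different genes are compared per kb of sequence. Per kb of merged exons, the mean level in TRAP fell in the order Calm2 (4610 CPM per kb), Calm3 (284), Camk2a (112), Camk4 (102), Camk2b (62.6), Camk2g (28.6), Camk1d (18.0), Camk2d (11.7) and Camkk2 (4.2). On this scale Camk2a and Camk4 did not differ beyond the spread of the pools, and their order was the reverse in INPUT (56.4 ± 8.63 and 63.8 ± 17.3 CPM per kb, SD, n = 4). The place of Camk2d turned on the length used, since its merged exons span 22493 bases, of which 11307 are in retained-intron transcripts alone, and its longest transcript 5524. Per kb of the longest transcript it had 47.8 ± 3.24 CPM in TRAP, beside 49.4 ± 2.74 for Camk2g, which is within the spread. On that scale Camk2b (138.5 ± 12.6) stood above Camk4 (122 ± 15.8), with overlapping values, and Camk2a and Camk2b were alike in INPUT (84.7 and 84.0). Camk2a (168 ± 12.1) was then above Camk4 in TRAP. Its mean was the higher in INPUT as well, where Camk4 had 76.5 ± 20.7.

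Per kb of merged exons, Camk2a took the largest share of the 4 CaMKII genes in both fractions, followed by Camk2b, Camk2g and Camk2d. The Camk2a share was 55.9, 51.4, 50.8 and 50.4% in TRAP and 45.1, 47.0, 49.1 and 49.4% in INPUT. All TRAP shares were above all INPUT shares, but the gap was uneven, at 10.8 points in VP1.6, 4.41 in VP2.2, 1.68 in VP2.6 and 1.00 in VP2.11. The mean shift was 4.46 ± 4.45 points (SD, n = 4), higher in 4 of 4 pools, and 2.36 points without VP1.6. With the trends on length described below taken out, it was 5.68 points (4 of 4 pools, merged exons) and 2.44 points (3 of 4, longest transcript). The exact two-sided sign-flip permutation test gave p = 0.13, the smallest it can give, and 0.25 after adjustment over the 4 genes.

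The Camk2b share was 26.8, 29.0, 29.6 and 31.0% in TRAP and 33.7, 33.6, 31.5 and 30.0% in INPUT. It was lower in 3 pools and higher in VP2.11, a mean shift of -3.08 ± 3.42 points. Camk2g held 13.3 ± 0.99% in TRAP and 15.1 ± 0.78% in INPUT and was lower in 3 of 4 pools, and Camk2d held 5.46 ± 0.19% and 5.07 ± 0.28% and was higher in 3 of 4. The Camk2d shift turned to -0.72 points, lower in 4 of 4 pools, with the trend on merged exons taken out. None of these 3 shifts as deposited passed (exact sign-flip permutation test, p = 0.25 each, adjusted 0.25). When the libraries were permuted without regard to pool, the adjusted p was 0.057 for each of the 4 genes, which did not pass either.

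**Figure D3:**
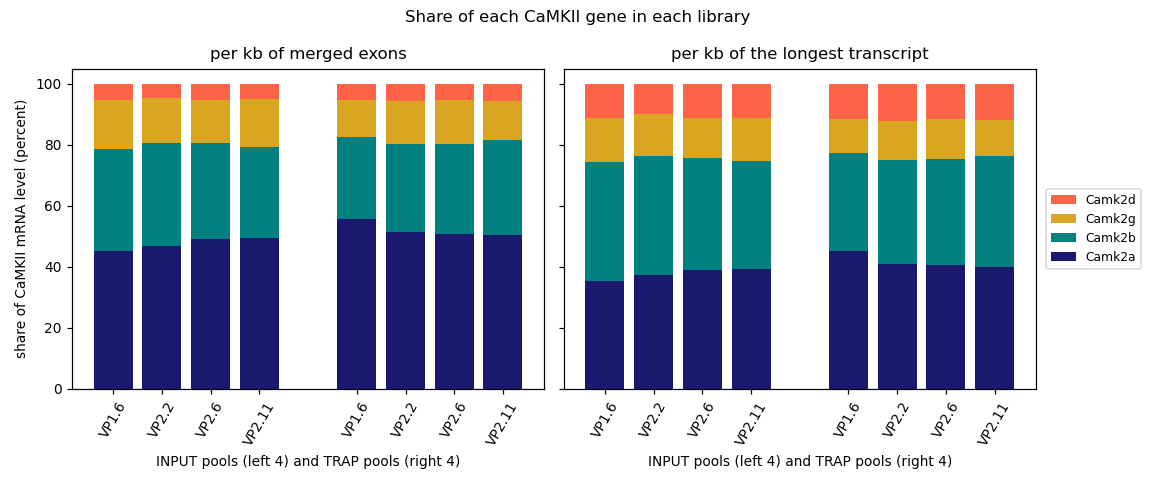
Share of each CaMKII gene in the summed level of the 4 genes (percent, stacked bars) in the INPUT libraries (left 4 bars of each panel) and TRAP libraries (right 4 bars), per kb of merged exons on the left and per kb of the longest transcript on the right. Camk2a is the largest share in every TRAP library, from 50.4 to 55.9% on the left, and Camk2d takes more of the total on the right, where its length is taken from 1 transcript.

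Per kb of the longest transcript, the mean shares were 41.7% for Camk2a, 34.3% for Camk2b, 12.2% for Camk2g and 11.8% for Camk2d in TRAP, and 37.8, 37.6, 13.8 and 10.9% in INPUT. The directions were the same as above, and the Camk2d share was then higher in all 4 pools by a mean of 0.94 points. Camk2a and Camk2b were thus about equal in INPUT on this scale, and in VP1.6 and VP2.2 the Camk2b share was the larger (39.0 against 35.4% and 39.2 against 37.3%). No share was compared with protein.

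Changes of the CPM ratio between pairs of CaMKII genes were compared as deposited first. The Camk2d to Camk2g ratio was higher in TRAP in all 4 pools, by 0.40, 0.37, 0.02 and 0.37 on the log2 scale, a mean of 0.29 ± 0.18 or 1.22-fold. The Camk2a to Camk2g ratio was also higher in 4 of 4 pools (0.31 ± 0.29, 1.24-fold), and the Camk2b to Camk2d ratio was lower in 4 of 4 (-0.25 ± 0.20). Camk2a to Camk2b rose in 3 of 4 pools (0.27 ± 0.28). The exact sign-flip permutation test over 6 pairs gave an adjusted p of 0.25 for the 3 ratios that moved alike in every pool and of 0.375 for Camk2a to Camk2b. The ratios of Camk2a to Camk2d and of Camk2b to Camk2g moved by 0.02 ± 0.21 and 0.04 ± 0.20, with 2 pools up and 2 down (adjusted p = 0.875 each, same exact test). Several of these changes turned or shrank once the trends on length below were taken out. On merged exons Camk2d to Camk2g went to -0.16 ± 0.27 (3 pools lower), Camk2b to Camk2d to 0.02 ± 0.20, Camk2a to Camk2g to 0.23 ± 0.30 and Camk2a to Camk2d to 0.39 ± 0.13 (4 of 4 pools higher). On the longest transcript, Camk2d to Camk2g was 0.04 ± 0.19, Camk2b to Camk2d -0.08 ± 0.15 and Camk2a to Camk2g 0.13 ± 0.35. The adjusted p of these ratios in the same exact test ran from 0.375 to 0.875.

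Gene length moved with the fraction. Across all genes tested, which are not independent replicates, the log2 fold change rose with merged exon length (Spearman rho = 0.41) and with longest transcript length (rho = 0.42). After a smooth trend on merged exon length was taken out of each pool, 2 members were called higher, Camk2a (0.69, limma adjusted p = 0.014) and Camk4 (0.86, adjusted p = 0.013), where 16.1% of all genes were. Those no longer called were Camk2d at 0.30, Camk2b at 0.32, Camk2g at 0.46 and Camk1d at 0.34 (adjusted p = 0.22, 0.21, 0.070 and 0.21), and Camkk2 was at 0.03 (adjusted p = 0.93). With the longest transcript as the length, 5 members were called higher, where 16.7% of all genes were. These were Camk2a at 0.74, Camk2b at 0.58, Camk2d at 0.65, Camk2g at 0.61 and Camk4 at 0.83 (adjusted p = 0.0077, 0.026, 0.011, 0.019 and 0.015), while Camk1d was at 0.19 (adjusted p = 0.49).

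**Figure D4:**
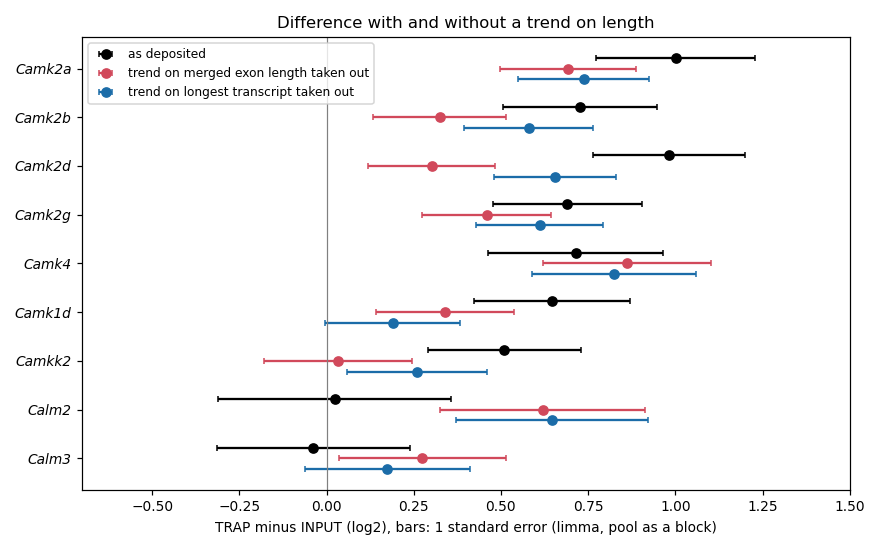
TRAP minus INPUT (log2, horizontal axis, bars of 1 standard error from limma with the pool as a block) for the 9 members as deposited, and after a trend on merged exon length or on longest transcript length was taken out. The 4 CaMKII genes and Camk4 stay above 0 by more than 1 standard error in all versions, Camk2d lies at 0.98, 0.30 and 0.65, and Calm2 moves from 0.02 to 0.62 and 0.65.

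Over the range of adjusted p in the 11 alternatives, Camk2a (0.00052 to 0.033) was called in all, Camk2d (0.00076 to 0.22) in 10 and Camk4 in 7. Camk2b (0.0019 to 0.21) and Camk2g (0.0027 to 0.095) were called in 6 and Camk1d (0.0075 to 0.49) in 5. Calm2 (0.085 to 0.97) and Calm3 (0.41 to 0.99) were called in none.

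The other genes of the pathway were taken as 47 genes in 7 lists, and all 47 were measured and tested. With the block, 9 rose in TRAP, 6 fell and 32 did not pass, against 15.4% and 16.8% of all genes, and their median log2 fold change was 0.17. With no block, 14 rose and 8 fell.

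Of the 6 other CaM kinase family genes, 1 rose and 5 did not pass. The one that rose was Camkk1, the other CaM kinase kinase, at 58.0 ± 6.28 CPM in TRAP and 27.0 ± 4.35 in INPUT (log2 fold change 1.11, SE 0.23, adjusted p = 0.0023). It was higher in all 4 pools, and Camkk1 (2.16-fold) and Camkk2 (1.42-fold) were not tested against each other. With the trends on merged exons and longest transcript taken out, Pnck and Camkv were called higher as well. Pnck was then at 0.60 and 0.63 (limma adjusted p = 0.047 and 0.034). Camkv was at 0.61 and 0.54 (adjusted p = 0.032 and 0.045). Pnck and Camkv were picked for naming after their values were seen.

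Of 4 inhibitors and phosphatases of the kinases, 1 rose and 1 fell. Camk2n1, an inhibitor protein of CaMKII, fell from 787, 1029, 741 and 662 CPM in INPUT to 321, 368, 359 and 372 CPM in TRAP. The fractions did not overlap, and the log2 fold change was -1.16 (SE 0.23, limma adjusted p = 0.0017). Camk2n2, the other CaMKII inhibitor of the list, did not pass (-0.23, limma adjusted p = 0.52), with 2 pools higher and 2 lower. With the trends on merged exons and longest transcript taken out it was at 0.44 and 0.35 (adjusted p = 0.19 and 0.29). Camk2n2 was picked for naming after its values were seen. A link between the inhibitors and the 4 CaMKII genes was not tested. Ppm1e, a nuclear phosphatase that acts on CaM kinases, rose from 41.7 ± 14.2 to 99.6 ± 13.7 CPM (1.32, SE 0.27, adjusted p = 0.0022). Ppm1f, another phosphatase of the list, was lower in all 4 pools but did not pass (-0.48, limma adjusted p = 0.10). It was called lower with no block (adjusted p = 0.0078). With the trends on merged exons and longest transcript taken out, it was also called lower (-0.56 and -0.74, adjusted p = 0.037 and 0.0093). Ppm1f was picked for naming after its values were seen.

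Of 4 small proteins that bind and buffer calmodulin, 2 fell, and Nrgn and Gap43 did not pass as deposited. Both were called higher once the trends on merged exons and longest transcript were taken out. Nrgn was then at 1.11 on merged exons (limma adjusted p = 0.00036) and had an adjusted p of 0.00065 on the longest transcript. Gap43 was at 0.75 and 0.68 (adjusted p = 0.021 and 0.026). Nrgn and Gap43 were picked for naming after their values were seen. Pcp4l1 fell from 171 ± 38.1 to 50.3 ± 6.26 CPM (log2 fold change -1.75, SE 0.21, limma adjusted p = 5.4e-05). Its relative Pcp4 fell from 285 ± 113 to 93.7 ± 11.9 CPM (-1.54, SE 0.25, adjusted p = 0.00055), and was at -0.75 and -0.54 with the trends on merged exons and longest transcript taken out (adjusted p = 0.0068 and 0.029). Medium spiny neurons are known to express Pcp4, and of the 7 markers of these neurons 5 were lower in TRAP and 2 did not pass. A link between the fall of Pcp4 and these cells was not tested.

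None of the 7 calcineurin genes, which encode the calmodulin-dependent phosphatase and its regulators, was called by limma with the block on the values as deposited. With the trend on merged exons taken out, Ppp3cb was called lower (-0.61, limma adjusted p = 0.019). On the longest transcript it was not (-0.32, adjusted p = 0.18). At an unadjusted p under 0.05, 1 of the 7 was lower as deposited, and Rcan1 was called lower with no block (log2 fold change -0.50, limma adjusted p = 0.0085). The catalytic subunit gene Ppp3ca had 1871 CPM in TRAP and 1868 in INPUT. Rcan1, Ppp3ca and Ppp3cb were picked for naming after their values were seen.

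Of 11 other calmodulin-dependent enzymes, 2 rose, 1 fell and 8 did not pass. Nos1, the neuronal nitric oxide synthase, was at 147 ± 8.41 CPM in TRAP against 63.1 ± 14.2 in INPUT (log2 fold change 1.25, SE 0.22, limma adjusted p = 0.0009). Adcy1, a calmodulin-stimulated adenylyl cyclase, was called as well (0.88, SE 0.30, adjusted p = 0.039), but its differences were 0.87, 2.16, 0.52 and -0.05, with VP2.2 far above the rest. With the trends on merged exons and longest transcript taken out, Nos1 was at 0.77 and 0.63, and Adcy1 lost its call at 0.35 and 0.20 (limma adjusted p = 0.33 and 0.57). Pde1b, a phosphodiesterase abundant in striatum, fell from 192 ± 23.7 to 111 ± 15.6 CPM (-0.79, SE 0.22, adjusted p = 0.013).

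Of 7 anchors and substrates of CaMKII, 3 rose and 1 fell. Syn1, a synaptic vesicle protein phosphorylated by CaMKII, was at 268 ± 38.2 CPM in TRAP and 91.9 ± 13.6 in INPUT (log2 fold change 1.54, SE 0.21, limma adjusted p = 0.00016). Grin2b, the NMDA receptor subunit that anchors CaMKII, was at 269 ± 38.7 and 101 ± 38.3 CPM (1.51, SE 0.28, adjusted p = 0.0013), with VP2.2 again the widest at 2.77, and it was at 0.82 and 0.77 with the trends on length taken out. Actn2, an actinin of the postsynaptic density, fell from 21.1 ± 3.11 to 9.79 ± 4.66 CPM (-1.28, SE 0.33, adjusted p = 0.0090). The calcium channel subunit gene Cacnb1 also rose (0.69, adjusted p = 0.040) and is named to complete the count.

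Of 8 targets of CaMKIV and CaMKK2, 2 rose, 1 fell and 5 did not pass. Prkaa2, a catalytic subunit of AMPK, rose from 23.4 ± 6.12 to 47.7 ± 7.04 CPM (log2 fold change 1.06, SE 0.26, limma adjusted p = 0.0066). It was at 0.72 with the trend on merged exon length taken out (adjusted p = 0.022) and lost its call on the longest transcript (0.54, adjusted p = 0.061). Creb1, the transcription factor CREB, rose from 36.9 ± 5.67 to 62.2 ± 3.09 CPM (0.77, SE 0.22, adjusted p = 0.016), and lost its call at 0.21 and 0.22 with the same trends taken out (adjusted p = 0.48 and 0.43). Crebbp, a coactivator of CREB, fell from 214 ± 21.2 to 140.0 ± 15.8 CPM (-0.61, SE 0.21, adjusted p = 0.040), and was at -1.17 and -1.25 with them taken out.

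The patterns of the 4 CaMKII genes over the 8 libraries were alike, with Pearson r of 0.952 to 0.986 between them. These 8 points share pools and the 2 fractions, so r is a description only. The genes most like Camk2a were Dars, Zfp148 and Syt4 (r = 0.998 each), those most like Camk2b were Atp1b1 (0.999), Sorl1 and Dnajc6 (0.998 each), those most like Camk2d were Synj1, Dnm3 and Jak1 (0.999 each), and those most like Camk2g were Kdm5b (0.999), Copg2 and Nfasc (0.998 each). Between a CaMKII gene and Calm2 or Calm3, r lay between -0.284 and -0.099.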

How the data were processed

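RNA from 4 pools of mice was sequenced in TRAP and INPUT, 8 libraries in all. Per the methods of the study, the authors used STAR 2.5.1a against GRCm38 from Ensembl, took uniquely mapped reads into featureCounts gene by gene, scaled by TMM in edgeR and fitted limma with voom and quality weights. The methods name the lysate and, elsewhere, the unbound fraction as INPUT. The deposited values used here are log2 CPM per library, and 3 of the 8 columns are rounded to 3 significant digits. Beside these the deposited table has the results of the authors' own comparison (log2 fold changes with limits, p-values and scores such as a linear fold change) and a transcript count per gene, none of which was used. Total counts are not part of a log2 CPM value and read depth was not computed, so the depth behind each value is unknown.

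Of 14398 entries, 45 repeats were left out, and the 14249 of 14353 genes that passed 1 CPM in 3 or more libraries entered the test. TRAP was compared with INPUT on log2 CPM with limma 3.58.1 (lmFit, eBayes with a trend, R 4.3.3), the pool as a block, and Benjamini-Hochberg adjustment. The methods name the comparison of the fractions and no term for the pool. The block was used because both fractions of a pool come from 1 homogenate and carry its number in the labels. Deviations from the fraction means correlated between -0.745 and -0.495 in the same pool and between 0.046 and 0.441 in different pools, and errors opposed within pools make a fit with no block too liberal. Shares and ratios were compared by exact sign-flip permutation over pools (Python 3.11.15, numpy 2.4.6, scipy 1.17.1). Exon lengths, positions and sequences came from GENCODE M21. Both the members and the pathway and marker lists were chosen with earlier results of these data known. The rule for names took all members, and up to 3 called genes of each pathway list with the largest fold change, and for each CaMKII gene the 3 genes with the highest Pearson r. A gene of the lists is not reported here. The script was tested on simulated data. Alternatives were no block, library weights, no filter, median centring, trends on length taken out (the longest transcript was added after seeing that the merged exons of Camk2d hold long retained introns, and length trends for shares and ratios were added after the results were seen), no trend in eBayes, a fold threshold, and leaving out each pool.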

Additional observations from a re-analysis of the deposited data

Results flagged for a closer look

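Of 68 groups of 4 libraries examined, over the members, the named pathway genes and the shares and ratios, 6 held 1 library far from the rest, where chance gives about 3.4. In INPUT VP2.2, Camk2d was at 6.62 log2 CPM (7.17 to 7.24 in the other INPUT libraries), Camk4 at 6.97 (7.82 to 7.98) and Prkaa2 at 3.84 (4.67 to 4.77). In TRAP VP2.2, Calm2 was at 12.45 log2 CPM (12.77 to 12.84 in the others). In TRAP VP2.11, Camk1d was at 6.84 log2 CPM (7.10 to 7.16). In INPUT VP2.11, the log2 ratio of Calm2 to Calm3 was 3.60 (3.12 to 3.16). The cause of these values was not tested.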

How the results depend on the processing

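With the block, the number of members called higher was 2 once the trend on merged exon length was taken out, 2 with no trend in eBayes, 1 where the log2 fold change also had to reach 1 in size, and 2 to 4 with a pool left out (2 without VP1.6 or VP2.6, 4 without VP2.2 or VP2.11), against 6. No member was called lower in any of these. Of the 14249 genes tested, 2287 were called higher with the merged exon trend taken out and 1482 with no trend in eBayes. At the fold threshold 1310 of them were called higher, and with a pool left out 1531 to 2119. Without a pool, 3232 to 4156 genes were called in either direction, against 4592. With no replicate block, 3300 genes were called higher against 2199, 7 members against 6, and 14 pathway genes against 9. Among the members the block changed the call of Camkk2 and of no other. Calm2 and Calm3, which no setting called, changed sign. Calm3 went from -0.04 to 0.011 with library weights, to 0.27 and 0.17 with trends on merged exons and longest transcript taken out, and ran from -0.33 to 0.25 with a pool left out, and Calm2 ran from -0.089 to 0.24 with a pool left out. With a pool left out, the change in log2 ratio ran from -0.077 to 0.079 for Camk2a to Camk2d, -0.051 to 0.092 for Camk2b to Camk2g and -0.032 to 0.29 for Calm2 to Calm3. With the trend on merged exons taken out, the Camk2d share shift turned to -0.72 points, and the log2 ratio changes to 0.022 for Camk2b to Camk2d, -0.13 for Camk2b to Camk2g and -0.16 for Camk2d to Camk2g. On the longest transcript, the Camk2d share shift was -0.048 points and Camk2b to Camk2g -0.032. The causes were not tested. With 4 pools the sign-flip test cannot pass, and the depth of the libraries is unknown, so counting error was not separated from the spread between pools.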
